A study of Saccharomyces cerevisiae with 6 samples.

Results

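The large subunit of the cytosolic ribosome of *S. cerevisiae* holds the ribosomal proteins encoded by the *RPL* genes and the P proteins encoded by the *RPP* genes. Members were taken by a rule on gene names, namely the *RPL* symbols with a number, *RPP0*, *RPP1A*, *RPP1B*, *RPP2A* and *RPP2B*. The rule was set with earlier results of these data known. The RNase P genes that share the letters *RPP* were left out. RefSeq has 81 genes of these names, of which 76 were found in the deposited table, with 83 of its 5705 probe sets.

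Cells of *S. cerevisiae* F12, an engineered yeast strain, were taken after 4 h of fermentation with 40% insoluble solids (IS, w/w), for which glass beads served as solids, and with 0% IS. In both conditions the cells grew in YNB medium, with glucose at 20 g/L and added ammonium sulfate (7.5 g/L). Total RNA was copied into cDNA, which was labelled and hybridized to Affymetrix yeast arrays, 3 with 40% IS and 3 with 0% IS. Whether each RNA replicate came from a culture of its own is not given in the sources used here.

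The measurement described is the mean log2 signal of each probe set over the arrays of both conditions together, as the authors deposited it. That meaning was read from the column's name, which is the one the limma program gives to such a mean. The measurement is a single pooled value, so it has no replicate error and says nothing about either condition. Values per array were not used here, the difference between 40% IS and 0% IS is not analysed here, and no test was run. A probe set is a group of short oligonucleotides with its own affinity, and its signal is not scaled to transcript length. A difference between probe sets is therefore a difference in signal on this array and not in amount of RNA.

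Ribosomal proteins wrap and stabilise the rRNA, and those of the large subunit surround the peptidyl transferase centre, the exit tunnel of the nascent chain and the stalk that recruits translation factors. Most yeast ribosomal protein genes exist as A and B copies left by an ancient genome duplication, and the proteins of many pairs are identical or nearly so, while the P1 and P2 copies differ more. In growing cells these genes are transcribed together under Rap1, Fhl1, Ifh1 and Sfp1, and their mRNAs make up a large part of all mRNA. Of the 81 genes, 70 form 35 pairs of an A and a B copy and 11 have 1 copy.

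The deposited table did not hold a row for every copy. A probe set whose ID ends in _at was designed for 1 transcript, while _s_at marks a set that more than 1 transcript can share. Of the 83 member probe sets, 70 were of the _at kind and 13 of the _s_at kind, and 0 were of the _x_at kind. The _s_at sets made up 15.7% of the member probe sets, against 1.79% of all 5705 probe sets (102 sets). By gene, 63 members had only an _at set, 7 had both kinds and 6 had only an _s_at set.

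The 5 genes without a row of their own were *RPL1A* (YPL220W), *RPL7B* (YPL198W), *RPL35B* (YDL136W), *RPL41B* (YDL133C-A) and *RPL42A* (YNL162W). For all 5, the other copy had an _s_at probe set and no other. These were listed under *RPL1B* (YGL135W), *RPL7A* (YGL076C), *RPL35A* (YDL191W), *RPL41A* (YDL184C) and *RPL42B* (YHR141C). The sixth gene with only an _s_at set was *RPL4A* (YBR031W), whose partner *RPL4B* (YDR012W) had an _at set. None of the single-copy genes had an _s_at set.

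The 83 member probe sets spanned mean log2 signals of 8.84 to 13.66 (median 12.64). The whole table spanned 6.20 to 14.14 (median 8.79). Of the member probe sets, 17 were at 13 or above, 58 lay between 12 and 13, and 8 were below 12. The 13 _s_at sets ran from 12.30 to 13.66 (median 13.11) and the 70 _at sets from 8.84 to 13.43 (median 12.59).

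Among the stalk proteins, *RPP0* (YLR340W), which anchors the stalk on the rRNA, had a mean log2 signal of 13.18. *RPP1A* (YDL081C) and *RPP1B* (YDL130W) were at 12.74 and 12.78, and *RPP2A* (YOL039W) and *RPP2B* (YDR382W) at 12.72 and 12.91. The acidic P1 and P2 proteins bind *RPP0* as heterodimers. Each of the 5 P protein genes had 1 probe set, of the _at kind, and the 5 signals ran from 12.72 to 13.18. *RPL12*, which sits at the base of the stalk, had signals of 12.34 for *RPL12A* and 12.63 for *RPL12B*.

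The 10 single-copy *RPL* genes have no paralog whose mRNA a probe set could share. *RPL10* (YLR075W), a late-joining protein at the heart of the subunit, had a mean log2 signal of 13.43. *RPL3* (YOR063W), which reaches towards the peptidyl transferase centre, was at 12.84, and *RPL5* (YPL131W), which carries the 5S rRNA into the subunit, at 13.12. At the exit tunnel, *RPL25* (YOL127W), where the signal recognition particle docks, was at 13.24 and *RPL39* (YJL189W), a small protein lining the tunnel, at 12.32. *RPL30* (YGL030W), whose protein binds its own transcript and blocks its splicing, was at 13.40, and *RPL28* (YGL103W), known for mutations that give cycloheximide resistance, at 13.23. *RPL32* (YBL092W) stood at 13.15, *RPL29* (YFR032C-A) at 12.80 and *RPL38* (YLR325C) at 12.27. With *RPP0*, the 11 single-copy genes ran from 12.27 to 13.43.

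**Figure D1:**
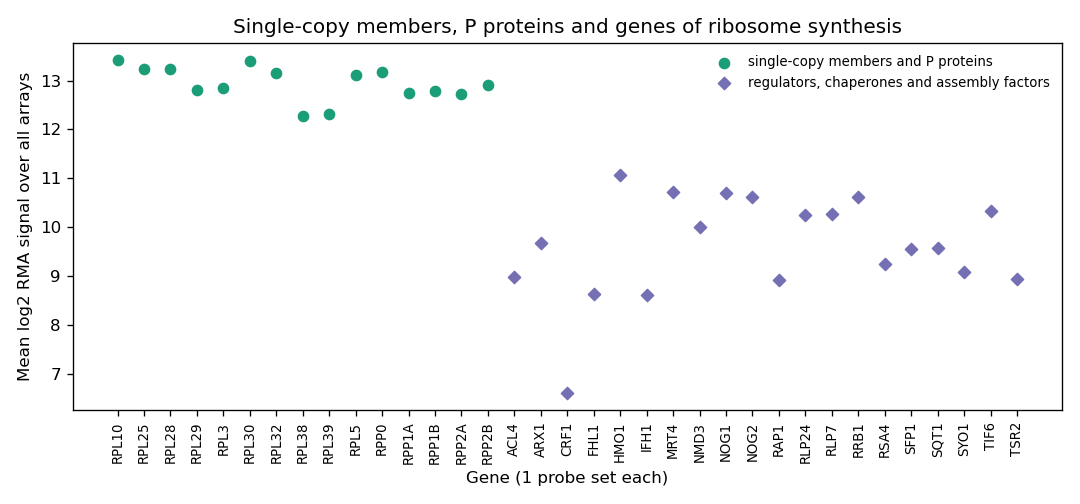
Mean log2 RMA signal (vertical axis, authors' mean over all arrays) of the single-copy members and P proteins (circles) and of the 20 regulators, chaperones and assembly factors (diamonds), 1 probe set each. The single-copy members lie between 12.27 and 13.43, and the other genes between 6.60 and 11.06. Probe sets differ in affinity, so heights are signals and not amounts of RNA.

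Of the 34 pairs described here, 28 had an _at probe set for each copy. The absolute difference in mean log2 signal between the copies had a median of 0.46 and reached 2.87 at most, the smallest being 0.01. The A copy had the higher signal in 15 pairs and the B copy in 13. The difference between _at sets exceeded 1 in 4 pairs, with the A copy higher in each. This pattern held for the _at sets alone. With the highest probe set of each gene, _s_at sets included, *RPL14* turned to -0.48 and *RPL2* from -0.24 to 1.10 (A minus B). *RPL11* reached -1.13. In all of these an _s_at set, which more than 1 transcript can share, was counted for the copy it is listed under. The values therefore depend on that listing and do not show which copy is higher.

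Those 4 pairs were *RPL15*, *RPL22*, *RPL14* and *RPL31*. *RPL15A* (YLR029C) had a mean log2 signal of 12.11 and *RPL15B* (YMR121C) one of 9.24, a difference of 2.87. *RPL22A* (YLR061W) was at 12.81 and *RPL22B* (YFL034C-A) at 10.92, a difference of 1.88. The protein of the *RPL22* pair is dispensable for growth. *RPL14A* (YKL006W) and the _at set of *RPL14B* (YHL001W) were at 12.64 and 11.27, and *RPL31A* (YDL075W) and *RPL31B* (YLR406C) at 12.77 and 11.63. In this group, picked for a difference above 1, each B set lay below the range of the single-copy genes, which began at 12.27. Each A set but that of *RPL15A* lay within it. Sets of other pairs also lay below that range, of both copies. Examples were *RPL9A* (12.18) and *RPL9B* (11.53), and *RPL19A* (11.69) and *RPL19B* (12.22).

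**Figure D2:**
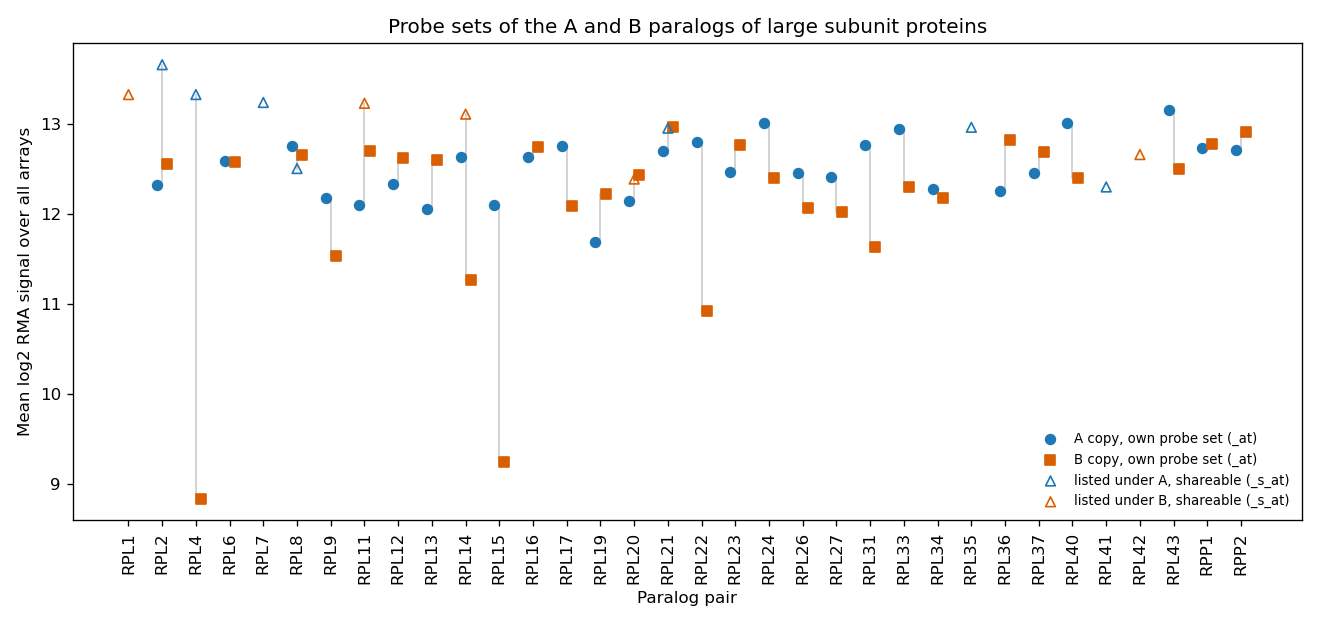
Mean log2 RMA signal (vertical axis, authors' mean over all arrays) of every probe set of the 34 paralog pairs described (horizontal axis). Filled circles are _at sets of A copies, filled squares _at sets of B copies and open triangles _s_at sets in the colour of the copy they are listed under. Most points lie between 12 and 13.66, and the points below 11 are *RPL4B* (8.84), *RPL15B* (9.24) and *RPL22B* (10.92).

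A further group of 10 pairs had a difference between 0.5 and 1. The A copy was higher in *RPL9* (12.18 for *RPL9A* and 11.53 for *RPL9B*), *RPL17* (12.76 for *RPL17A* and 12.10 for *RPL17B*) and *RPL24* (13.01 for *RPL24A* and 12.41 for *RPL24B*). The *RPL17* protein lines the exit tunnel, and that of *RPL24* joins the subunit late, in the cytoplasm, in place of Rlp24. The A copy was also the higher one in *RPL33* (12.95 for *RPL33A* and 12.31 for *RPL33B*), *RPL40* (13.02 for *RPL40A* and 12.40 for *RPL40B*) and *RPL43* (13.15 for *RPL43A* and 12.50 for *RPL43B*). Both *RPL40* genes encode the ribosomal protein as a fusion with ubiquitin, which is cut off after translation. The B copy was higher in the other four. These were *RPL11* (12.10 for *RPL11A* and 12.70 for *RPL11B*), *RPL13* (12.06 for *RPL13A* and 12.61 for *RPL13B*), *RPL19* (11.69 for *RPL19A* and 12.22 for *RPL19B*) and *RPL36* (12.25 for *RPL36A* and 12.83 for *RPL36B*). The *RPL11* protein enters the subunit together with Rpl5 and the 5S rRNA.

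The remaining 14 pairs differed by less than 0.5. *RPL6* had the smallest difference, 0.01, with 12.60 for *RPL6A* and 12.58 for *RPL6B*. *RPP1*, *RPL34*, *RPL16* and *RPL8* were also near equal, with absolute differences of 0.04, 0.10, 0.10 and 0.11. The tunnel exit protein *RPL26* was at 12.46 for *RPL26A* and 12.07 for *RPL26B*, and *RPL27* at 12.42 for *RPL27A* and 12.03 for *RPL27B*. *RPL23A* and *RPL23B* stood at 12.47 and 12.77, and *RPL37A* and *RPL37B* at 12.46 and 12.69. Where the coding sequences of a pair are alike, an _at set can also pick up its partner's mRNA, and near-equal signals do not show that both copies were transcribed alike. How far the sets cross-hybridize was not tested.

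**Figure D3:**
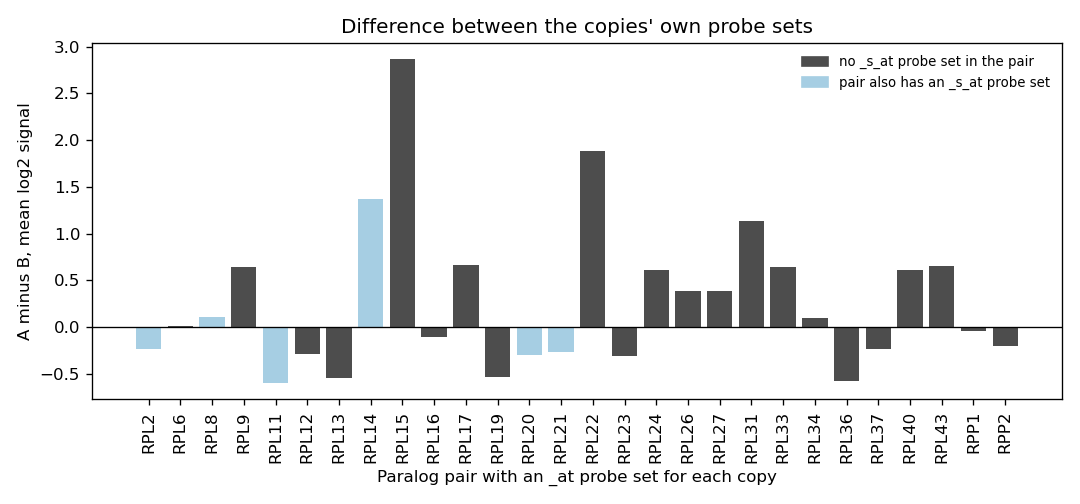
Difference in mean log2 signal (A copy minus B copy, vertical axis) for the 28 pairs with an _at probe set for each copy. Dark bars are the 22 pairs without an _s_at set and light bars the 6 pairs that also have one. The A copy is higher in 15 pairs and the B copy in 13, and the 4 bars beyond 1 point to the A copy. With the highest probe set of each gene instead, *RPL14* is at -0.48, *RPL11* at -1.13 and *RPL2* at 1.10. These values count a shareable _s_at set for the copy it is listed under.

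In 7 pairs an _s_at set could be placed beside an _at set of the same pair. Its signal was above every _at set of the pair in 4 of them. In *RPL2*, whose protein lies near the peptidyl transferase centre, the _s_at set listed under *RPL2A* (YFR031C-A) was at 13.66, and the _at sets were at 12.33 for *RPL2A* and 12.56 for *RPL2B*. In *RPL11* the _s_at set was at 13.23 and in *RPL14* at 13.11, both listed under the B copy. For *RPL14B* the 2 rows of 1 gene thus stood 1.84 apart, although they carry the same systematic name. In *RPL4*, whose protein sends a loop into the exit tunnel, the _s_at set listed under *RPL4A* was at 13.33 and the _at set of *RPL4B* at 8.84, a gap of 4.49.

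In the rest of these pairs the _s_at set was not above every _at set. The _s_at set of *RPL8* (12.51, listed under *RPL8A*) was below both _at sets (12.76 for *RPL8A* and 12.66 for *RPL8B*). That of *RPL20* (12.39) lay 0.05 below the _at set of *RPL20B* and above that of *RPL20A* (12.15). That of *RPL21* (12.96) lay 0.01 below the _at set of *RPL21B* and above that of *RPL21A* (12.70). Where the partner had no row, the _s_at sets were at 13.33 for *RPL1B*, 13.24 for *RPL7A*, 12.97 for *RPL35A*, 12.66 for *RPL42B* and 12.30 for *RPL41A*. The *RPL1* protein forms the mobile stalk beside the exit site of tRNA, and *RPL41* encodes a very short peptide. For these pairs the table holds 1 value, and which transcripts its probes match was not tested.

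The members also lie close to other ribosomal protein genes in places. In the order of protein-coding genes of RefSeq, *RPL13A* is next to *RPP1A* and *RPL24A* next to *RPL30*, and 5 members described here adjoin a gene of the small subunit. *RPL13A* lies beside *RPS16B* and *RPL13B* beside *RPS16A*, so both copies keep the same neighbour family. *RPL21A* adjoins *RPS9B*, *RPL39* adjoins *RPS22A* and *RPP2A* adjoins *RPS15*.

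A list of 20 regulators, chaperones and assembly factors of ribosome synthesis was read beside them, and each had 1 probe set, of the _at kind. Their mean log2 signals lay between 6.60 and 11.06 (median 9.62). Of the transcription regulators, *RAP1* (YNL216W) was at 8.91, *FHL1* (YPR104C) at 8.62, its coactivator *IFH1* (YLR223C) at 8.62 and its corepressor *CRF1* (YDR223W) at 6.60. *SFP1* (YLR403W), an activator, was at 9.55 and *HMO1* (YDR174W), a high mobility group protein of ribosomal gene promoters, at 11.06. The regulators thus included both ends of the list's range.

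Several ribosomal proteins have a chaperone of their own that holds them until they join the subunit. *RRB1* (YMR131C), the chaperone of Rpl3, was at 10.61, *SQT1* (YIR012W), that of Rpl10, at 9.57, and *ACL4* (YDR161W), that of Rpl4, at 8.99. *SYO1* (YDL063C), which brings in Rpl5 and Rpl11 together, was at 9.08, and *TSR2* (YLR435W), which serves a small subunit protein, at 8.95. Among the assembly factors, *MRT4* (YKL009W), a placeholder for Rpp0, was at 10.72, *RLP24* (YLR009W), the placeholder for Rpl24, at 10.25, and *RLP7* (YNL002C), a relative of Rpl7, at 10.26. The GTPases *NOG1* (YPL093W) and *NOG2* (YNR053C) were at 10.71 and 10.61, *TIF6* (YPR016C), which keeps the subunits apart, at 10.33, and *RSA4* (YCR072C) at 9.25. The export factor *ARX1* (YDR101C) was at 9.67, and the export adapter *NMD3* (YHR170W) at 9.998.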

How the data were processed

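The authors hybridized labelled cDNA to Affymetrix yeast arrays, normalized them with RMA (Affymetrix Expression Console) and ran limma on the result. The mean log2 signal over the arrays was read from the authors' deposited table as a pooled value, without SD or n. Its other columns hold the authors' own comparison of the conditions (a fold change, a moderated t, a p, an adjusted p and a log-odds), which were not used here, and 3 further columns were empty. How the 5705 probe sets were chosen is not given in the sources used here.

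Gene symbols were looked up by systematic name in the RefSeq annotation (assembly GCF_000146045.2, R64). Of the 5705 rows 5692 were found, and 0 of the other 13 carried another name of a member. No coordinates were printed. A pair (1 of 35) is not reported here beyond the counts and ranges over all members. The members and the list of 20 other genes were chosen with earlier results of these data known. As alternatives, medians were taken over 1 probe set per gene and without _s_at sets. The number of arrays limits the precision. No sequences were used. Python 3.11.15, numpy 2.4.6, pandas 2.3.3 and matplotlib 3.10.9 were used, and the name rule was checked on made-up symbols.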

Additional observations from a re-analysis of the deposited data

How the results depend on the processing

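The median mean log2 signal of the member probe sets was 12.65 with 1 probe set per gene, the highest, and 12.59 without _s_at sets, beside 12.64 over all 83. The median absolute difference between A and B copies was 0.54 over the 22 pairs without an _s_at set, beside 0.46 over 28 pairs. With the highest probe set per gene, chosen after seeing the data, it was 0.53 over 29 pairs, since *RPL4* enters with an _s_at against an _at set, and 0.50 over the same 28. That choice turned the direction of 2 pairs, *RPL2* and *RPL14*. It put 6 pairs beyond 1, 5 with the set listed under A higher and 1 with that under B. Among them, *RPL2*, *RPL4* and *RPL11* passed 1 only with an _s_at set counted for the copy it is listed under. As such a set can be shared, the turns and these counts do not show which copy is higher. Taking the names from the table itself was not run, since it gives systematic names. No paired analysis was possible because the table holds no values per array, and for the same reason leaving out arrays and a filter in the fit were not run. Protein identity of the copies was not analysed here.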
